A study of Mus musculus with 24 samples.

Results

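The regions described here are 3357 active promoters of the mouse liver that had a TEAD peak in wild-type liver and a Myc peak once Myc was overexpressed, and at which no YAP peak was called when YAP and Myc were overexpressed together. They were chosen from 18852 regions of H3K4me3 in wild-type liver by a rule on peak lists. The 1000 widest regions, whose narrowest had 10653 bp, were left out. Of the remaining 17852 regions, 13631 overlapped a wild-type H3K27ac region by at least 1 bp, 11546 of these also overlapped a Myc peak of tet-Myc liver, and 9907 of those also overlapped a TEAD peak of wild-type liver. Leaving out regions with a Myc peak in wild-type liver kept 7815. These divided into the 3357 members, which shared no base with any YAP peak of tet-Myc/YAP liver, and 4458 YAP-recruiting promoters, which did. The members were thus 18.8% of the regions outside the widest 1000. Taken singly over the 17852 regions, the lists of the rule overlapped 76.4% for H3K27ac and 65.7% for TEAD in wild-type liver, 70.1% for Myc in tet-Myc liver, 12.4% for Myc in wild-type liver and 38.7% for YAP in tet-Myc/YAP liver. Because measured peaks chose them, what the 6 lists used by the rule show at the members is a description only. The rule asked for H3K4me3 and H3K27ac together, which is what active promoter means here. No gene start was used, since the positions are of the mm9 build and no annotation of that build was used here, so promoters are named by position and the tissue could not be checked against marker genes.

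The series profiled chromatin of livers of 4 genotypes by ChIP-seq. All 4 carried R26-rtTA, the doxycycline-responsive activator placed at the broadly active Rosa26 locus, and the transgenic groups were R26-rtTA;tet-Myc, R26-rtTA;tet-YAP and R26-rtTA;tet-Myc;tet-YAP, called tet-Myc/YAP or double transgenic, beside R26-rtTA;WT. Mice received doxycycline for 2 days, and the YAP transgene, placed at the Col1A1 locus, encodes a YAP mutant that escapes inhibition by phosphorylation. The liver was taken whole, so which of its cells carried the transgene was not given, nor was whether animals were pooled. Each combination of antibody and genotype was 1 library, without replicates, so differences between genotypes have no replicate check and no p-value was made from regions.

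Promoters in use carry trimethylated lysine 4 and acetylated lysine 27 of histone H3, while monomethylated lysine 4 is best known from enhancers and the flanks of promoters. Myc is a transcription factor that pairs with Max on E-box sequences and, at high levels, occupies most open promoters. TEAD proteins bind DNA through their own domain, whereas YAP, the effector that the Hippo pathway restrains, has no DNA-binding domain and reaches chromatin chiefly through TEAD. The promoters described here are those where the DNA-binding partner was called in wild-type liver and the coactivator was not called in the double transgenic liver. An uncalled peak is not absence of the protein, since sites under the cutoff of the caller are not in a list.

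Several features of the libraries bear on the values. Per the file headers, the YAP list of tet-Myc/YAP liver, which excluded promoters from the set, held 11719 peaks from 17.4 M ChIP tags against a control of 167.0 M. YAP chromatin was fixed with a protein crosslinker and formaldehyde, and the other chromatin with formaldehyde alone. Tags numbered 16.9 to 26.1 M for Myc in the transgenic livers, 31.6 to 33.1 M for TEAD, and 50.6, 37.7, 45.8 and 20.9 M for RNA polymerase II (Pol2) in tet-Myc, tet-YAP, tet-Myc/YAP and wild-type liver. The Myc list of wild-type liver and the YAP list of tet-YAP liver stood apart, with estimated fragments of 51 and 56 bp beside tags of 51 bp, and median peak widths of 81 and 98 bp. The depth of the histone mark lists is unknown.

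The member with the strongest Myc peak in tet-Myc liver shows what the class looks like. It lies at chr2:128925911-128928262 of mm9 and spans 2352 bp. Fold enrichment, the summit pileup over the local control as MACS2 gave it, was 66.67 for Myc in tet-Myc liver, which the rule used. It was 103.24 in tet-Myc/YAP and 23.19 in tet-YAP liver, so Myc peaks stood here in both lists that the rule did not use. For TEAD it was 15.45, 5.43 and 22.96 in tet-Myc, tet-YAP and double transgenic liver, against 8.07 in wild-type liver. Pol2 was present in all 4 genotypes, at 19.75, 14.98 and 23.94 in tet-Myc, tet-YAP and double transgenic liver, against 11.14 in wild-type liver. The nearest YAP peak of tet-Myc/YAP liver was 26974 bp away. By contrast, the member at chr3:51832698-51835683 had a Myc fold enrichment of 26.07 in tet-Myc liver and TEAD peaks in all 4 genotypes, but no Pol2 peak in any.

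**Figure D1:**
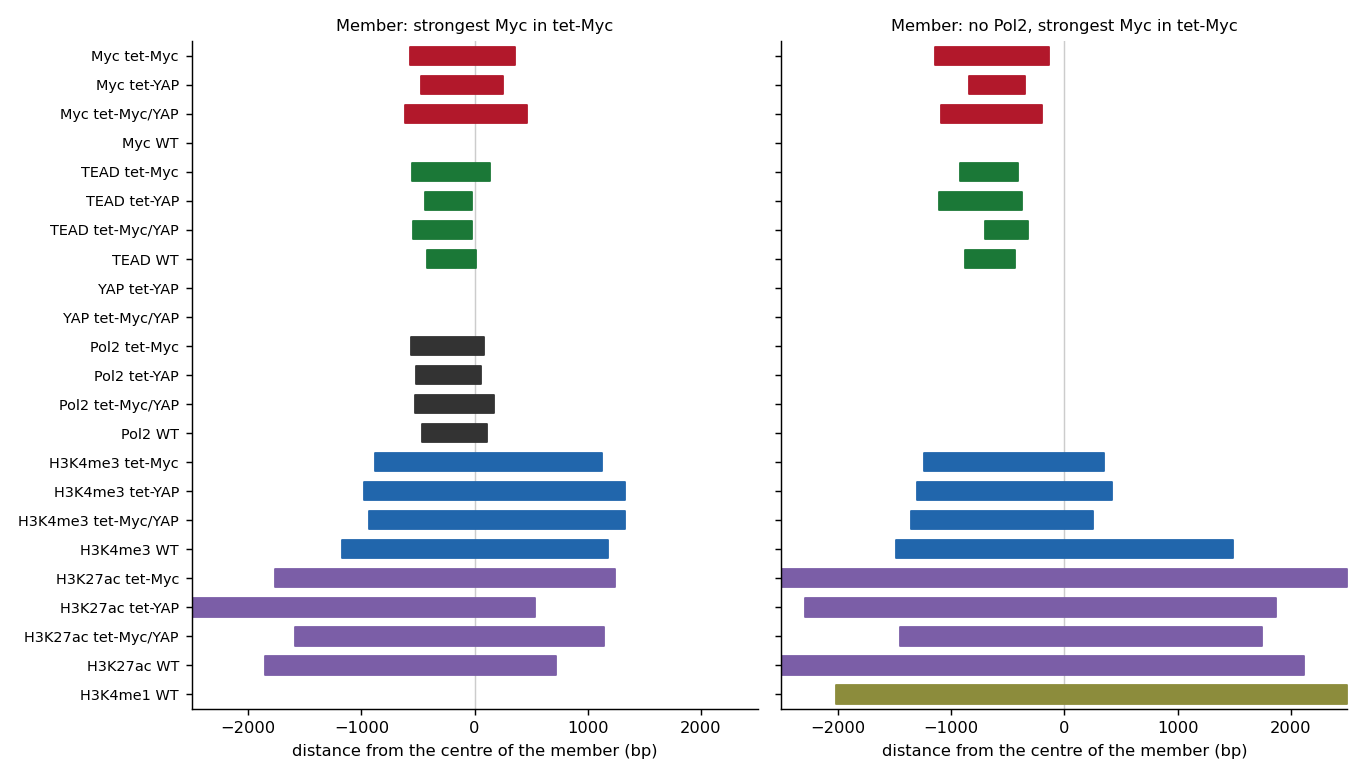
Peaks and broad regions at 2 members, as distance from the centre of the member in bp, with 1 row per list and bars cut at the edges of the window. Left, the member with the strongest Myc peak of tet-Myc liver, where the Myc, TEAD and Pol2 bars lie over each other and both YAP rows are empty. Right, the strongest Myc peak among members without Pol2, where the 4 Pol2 rows are empty too.

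Myc was found again at nearly all members in the double transgenic liver, and at fewer of them when only YAP was induced. A Myc peak of tet-Myc/YAP liver overlapped 3137 members (93.4%, 95% Wilson interval 92.6 to 94.2) and 98.7% of the YAP-recruiting promoters, against 71.6% of all 17852 regions. Every member has Myc in tet-Myc liver by the rule, whereas 70.1% of all regions have it. Among 1588 active promoters without wild-type Myc that had Myc in tet-Myc liver but no TEAD in wild-type liver, the share was 92.9%, near that of the members. A Myc peak of tet-YAP liver, where no Myc transgene was present, overlapped 1447 members (43.1%, 41.4 to 44.8) and 71.7% of the YAP-recruiting promoters, against 41.6% of all regions. These and the following intervals cover counting only, not variation between livers, and neighbouring regions are not independent. The share of members with Myc in tet-YAP liver was thus close to the background of all regions. That of the YAP-recruiting promoters was 28.6 percentage points higher than in members. No gain over wild-type liver is read from either share, since the wild-type Myc list had estimated fragments near the tag size.

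The 2 Myc lists differ in length, and the order of the genotypes narrowed when they were made equally long. With the 13227 peaks of highest −log10 q in each, 51.7% of members overlapped Myc in tet-Myc/YAP liver and 43.1% in tet-YAP liver. The YAP-recruiting promoters gave 77.0% and 71.7% on the same lists.

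TEAD was found at most members in each transgenic genotype. TEAD peaks overlapped 2961 members in tet-Myc liver (88.2%, 87.1 to 89.3), 2657 in tet-YAP liver (79.1%, 77.7 to 80.5) and 3201 in tet-Myc/YAP liver (95.4%, 94.6 to 96.0). All regions gave 68.5%, 60.9% and 75% in the same order. Every member has TEAD in wild-type liver by the rule, whereas 65.7% of all regions have it. A closer background is the 912 active promoters with TEAD in wild-type liver but no Myc in tet-Myc or wild-type liver. Their shares were 80.8%, 69.8% and 81.6% in the same order. TEAD was present in all 3 transgenic genotypes at 2482 members (73.9%) and at 90.2% of the YAP-recruiting promoters, against 56.6% of all regions. The order of the genotypes depended on the length of the lists. With 32486 peaks in each, the shares of members were 72.6%, 79.1% and 77.7% in tet-Myc, tet-YAP and double transgenic liver, so the excess of tet-Myc/YAP over tet-YAP in the deposited lists did not hold at equal length.

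Myc and TEAD together marked 3018 members in tet-Myc/YAP liver (89.9%), the very genotype whose YAP list is empty at these promoters. Among the YAP-recruiting promoters 97.8% had both, against 65.3% of all regions. The rule asked the members for both factors in other genotypes and did not ask this of all regions, so the YAP-recruiting promoters are the closer background. TEAD without Myc was found at 183 members (5.45%), against 9.63% of all regions. Myc without TEAD was found at 119 (3.54%), against 6.27% of all regions, and 37 members (1.10%) had neither, against 18.8% of all regions. A TEAD peak of tet-Myc/YAP liver was thus called at 3201 members and not called at 156 (4.65%), against 0.920% of the YAP-recruiting promoters without one. These counts rest on the cutoff. The members' share with TEAD was 89.2% with peaks of −log10 q of at least 10, and 77.7% with lists of equal length. Whether the lack of a YAP peak is tied to TEAD was not tested.

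YAP alone was not seen at the members either, apart from a few. In tet-YAP liver 31 members (0.923%, 0.651 to 1.31) overlapped a YAP peak, fewer than the 5.23% of the YAP-recruiting promoters and the 2.52% of all regions. The members were chosen for lacking YAP in tet-Myc/YAP liver, whereas 38.7% of all regions and every YAP-recruiting promoter have it. The lower share is therefore not independent of the rule, and it was not set beside regions that also lack YAP in that list. The member at chr19:41902546-41906339 had the highest YAP fold enrichment of those named, at 22.53, followed by chr13:41447364-41456067 at 20.99. Both had TEAD in all 4 genotypes, with fold enrichments of 28.95 and 39.27 in tet-Myc/YAP liver against 12.98 at each in wild-type liver. The other named members with YAP in tet-YAP liver were chr8:111234354-111242579, chr7:13546019-13548344 and chr4:141633238-141641809, with YAP fold enrichments of 19.88, 18.55 and 16.99. Of these 31 promoters, 2 kept a YAP peak at −log10 q of at least 10.

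The members' distance from YAP has a lower limit set by the rule, which left out every overlap with the same list. The median distance from a member to the nearest YAP peak of tet-Myc/YAP liver was 31.0 kb, with quartiles of 12.8 and 77.0 kb, and the only member on chromosome Y had none on its chromosome. Such a peak lay within 1 kb of 4 members, within 5 kb of 262 (7.81%) and within 10 kb of 660 (19.7%). Over the 10939 regions without a YAP peak of this list that had one on their chromosome, the median was 45.8 kb, with 5.13% within 5 kb and 14.0% within 10 kb. Over the 1224 active promoters with Myc but no TEAD that also lacked YAP, the median was 34.2 kb, with 6.94% and 18.9%. The members thus lay nearer to YAP than regions without YAP as a whole, at a distance near that of these similar promoters. Just inside the limit, chr13:43618564-43621373 ended 2 bp from a YAP peak, and chr12:25917803-25920829, chr15:77686259-77689151, chr14:76227792-76229752 and chr5:22915510-22917391 followed at 73, 145, 592 and 1264 bp. Just outside it, chr1:93360277-93362207 shared 37 bp with YAP, and chr1:9619879-9621643, chr17:43075965-43077163, chr9:61659888-61661155 and chr8:112097209-112104056 shared 64, 125, 153 and 173 bp. The YAP peaks that kept these last promoters out had fold enrichments of 5.18 to 5.87, below the median of 6.99 at all YAP-recruiting promoters. The median −log10 q of YAP there was 10.02, and 2122 of the 4458 promoters (47.6%) had a value under 10, so many promoters stood on the far side of the rule by a weak peak.

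RNA polymerase II was found at most members in each of the 4 genotypes, all of which received doxycycline. Pol2 peaks overlapped 3179 members in tet-Myc liver (94.7%), 2793 in tet-YAP liver (83.2%) and 2970 in tet-Myc/YAP liver (88.5%), against 2590 in wild-type liver (77.2%). The background over all regions was 76.9%, 70.1% and 72.7% in the 3 transgenic genotypes, against 62.6% in wild-type liver. The wild-type Pol2 library also had the fewest tags, and depth and genotype cannot be told apart. With 39181 peaks in each list, the members' shares were 90.1%, 80.2% and 84.2% in tet-Myc, tet-YAP and double transgenic liver, against 77.2% in wild-type liver, in the same order as before.

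Polymerase was present in all 4 genotypes at 2416 members (72.0%) and at 88.2% of the YAP-recruiting promoters, against 59.3% of all regions. Of the 767 members without Pol2 in wild-type liver, 610 (79.5%) had a peak in tet-Myc liver, 480 (62.6%) in tet-Myc/YAP liver and 315 (41.1%) in tet-YAP liver. Over all 6668 regions without Pol2 in wild-type liver the shares were 40.1%, 32.3% and 25.1% in the same order, and over the 440 such YAP-recruiting promoters 85.9%, 73.6% and 58.4%. The 767 members thus lay above the background of regions and below the YAP-recruiting promoters, with 50.6 M tags in the tet-Myc library and 20.9 M in that of wild-type liver, and the part of depth in these shares was not tested. These 767 were narrow, with a median width of 1928 bp against 3709 bp for the members with Pol2 in wild-type liver. A Pol2 peak in the 3 transgenic genotypes but not in wild-type liver was found at 264 members (7.86%), against 6.64% of all regions. A Pol2 peak in tet-Myc and tet-Myc/YAP liver only was found at 193 (5.75%), against 4.2% of all regions, and one in tet-Myc liver only at 121 (3.60%), against 3.01%. At 100 members (2.98%) a wild-type peak had no counterpart in tet-Myc/YAP liver, against 1.97% of all regions. Another 121 members (3.60%) had no Pol2 peak in any genotype, and among these chr2:85907431-85912899 and chr2:118797972-118799526 had the next highest Myc, with fold enrichments of 16.46 and 16.19 in tet-Myc liver. The share without any polymerase was 0.920% of the YAP-recruiting promoters and 20% of all regions.

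The histone marks that define the class were found at most members in the transgenic livers too. H3K27ac was found in all 3 transgenic genotypes at 3258 members (97.1%), against 77.5% of all regions. Every member has wild-type H3K27ac by the rule, whereas 76.4% of all regions have it, so the 13631 regions with the mark in wild-type liver are the closer background. Among these, 95.8% had it in all 3 transgenic genotypes. Its regions overlapped 99.4%, 98.0% and 98.8% of members in tet-Myc, tet-YAP and double transgenic liver, against 82.3%, 81.4% and 82.4% of all regions and 98.2%, 97.9% and 97.4% of regions with wild-type H3K27ac. The members' shares were near the last of these. H3K4me3 was found again at 91.0% of members in tet-Myc liver, 79.7% in tet-YAP liver and 92.0% in tet-Myc/YAP liver. All regions have wild-type H3K4me3, and their shares were 90.2%, 81.5% and 90.9%, near those of the members. H3K4me3 was found in all 3 transgenic genotypes at 2627 members (78.3%), against 78.8% of all regions, and it was absent from all 3 transgenic lists at 164 members (4.89%), against 5.65% of all regions.

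The 303 members without H3K4me3 in tet-Myc liver were narrow and weak promoters in wild-type liver. Their median width was 1815 bp, against 3464 bp for the 3054 members that had the mark, and Pol2 was present in wild-type liver at 48.8%, against 80.0%. Nearly all of them, 98.0%, overlapped wild-type H3K4me1, against 89.1% of the members that had the mark. Myc in tet-Myc/YAP liver was found at 79.9% of them, against 94.8%, whereas TEAD in tet-Myc/YAP liver was found at 94.4%, against 95.4%.

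At these regions, all chosen for H3K4me3 in wild-type liver, the length covered by the mark was shorter in the transgenic livers, at members and over all regions. Within 2 kb of the region, the median ratio of covered length, transgenic over wild type, was 0.82 for tet-Myc, 0.86 for tet-YAP and 0.81 for tet-Myc/YAP liver at members. It was 0.83, 0.90 and 0.81 over all regions. A ratio of at most 1/1.5 was reached at 985, 1010 and 1063 members (29.3%, 30.1% and 31.7%), against 28.4%, 27% and 30% of all regions, and a ratio of at least 1.5 at 40, 132 and 61 members (1.19%, 3.93% and 1.82%), against 1.64%, 5.61% and 1.92%. The members' share was thus near the background in each genotype. Every region had the mark in wild-type liver by choice, and those without it in a transgenic list can only lower the ratio. The shorter lengths in the transgenic livers are therefore not independent of this choice. The lists themselves differ in region width, with medians of 2646, 3498.5 and 2524 bp in tet-Myc, tet-YAP and double transgenic liver, against 3358 bp in wild-type liver, and the part of this in the ratios was not tested.

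Few members had wider H3K4me3 in the double transgenic liver. The largest ratio, 3.61, was at chr10:23614204-23615712, which had no Pol2 peak in wild-type liver and Pol2 fold enrichments of 16.38, 11.92 and 28.74 in tet-Myc, tet-YAP and double transgenic liver. TEAD there was 38.13 in tet-Myc/YAP liver against 5.17 in wild-type liver. At chr19:24345860-24346534 the ratio was 3.24, again with Pol2 in the 3 transgenic genotypes and not in wild-type liver, whereas chr10:68569667-68570571, with a ratio of 3.10, had no Pol2 in any genotype. For H3K27ac the members' median ratio was 1.00 in tet-Myc and in tet-YAP liver and 0.97 in tet-Myc/YAP liver, beside 1.00, 1.00 and 0.96 over all regions with wild-type H3K27ac. A ratio of at most 1/1.5 was reached at 236, 256 and 449 members (7.03%, 7.63% and 13.4%), against 8.12%, 7.6% and 14.3% of those regions, and a ratio of at least 1.5 at 133, 123 and 83 members (3.96%, 3.66% and 2.47%), against 4.07%, 3.74% and 2.66%. The counts at 1/1.5 or less rested on the setting, being 130, 187 and 291 members with a flank of 1 kb and 67, 109 and 174 at a ratio of 2.

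Monomethylated H3K4, measured in wild-type liver only, overlapped 3019 members (89.9%) and 96.2% of the YAP-recruiting promoters, against 70.4% of all regions. The 338 members without it were not poorer in H3K4me3 of the transgenic livers. The mark was found at 98.2% of them in tet-Myc liver, against 90.2% of the members with H3K4me1, and at 95.3% in tet-YAP liver, against 78.0%.

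Set beside the YAP-recruiting promoters, which passed the same rule up to the YAP list, the members had the lower share in each of the 17 lists that the rule did not use. The interval of the difference lay below 0 in all 17. The members were also narrower, with a median of 3315 bp against 4204 bp, and weaker in H3K4me3, with a median score of 27160 against 40585. The YAP-recruiting promoters were therefore reweighted to the members' distribution over 10 classes of width. After this the interval lay below 0 in 16 lists, the exception being H3K27ac in tet-Myc liver, with a difference of −0.145 percentage points (−0.527 to 0.279).

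The largest of these differences concerned Myc when only YAP was induced. At equal width it was −25.2 percentage points (−27.4 to −22.9) for Myc in tet-YAP liver, and −17.7 (−20.0 to −15.5) when the YAP-recruiting promoters were instead reweighted to the strength of the members' Myc peaks in tet-Myc liver. TEAD in tet-YAP liver followed at −13.6 (−15.2 to −12.0) at equal width and −13.1 (−14.7 to −11.4) at equal Myc strength. For Pol2 in wild-type liver, the genotype without a transgene for Myc or YAP, the difference was −13.0 without reweighting and −7.95 (−9.82 to −6.08) at equal width, so the reweighting by width brought it nearer to 0. The Pol2 differences at equal width were −2.65, −8.27 and −5.80 in tet-Myc, tet-YAP and double transgenic liver. H3K4me1 differed by −5.07 (−6.36 to −3.78). The 817 members (24.3%) that held a peak or region in every list outside the rule, the YAP list of tet-YAP liver set aside, compare with 54.8% of the YAP-recruiting promoters and 28% of all regions.

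**Figure D2:**
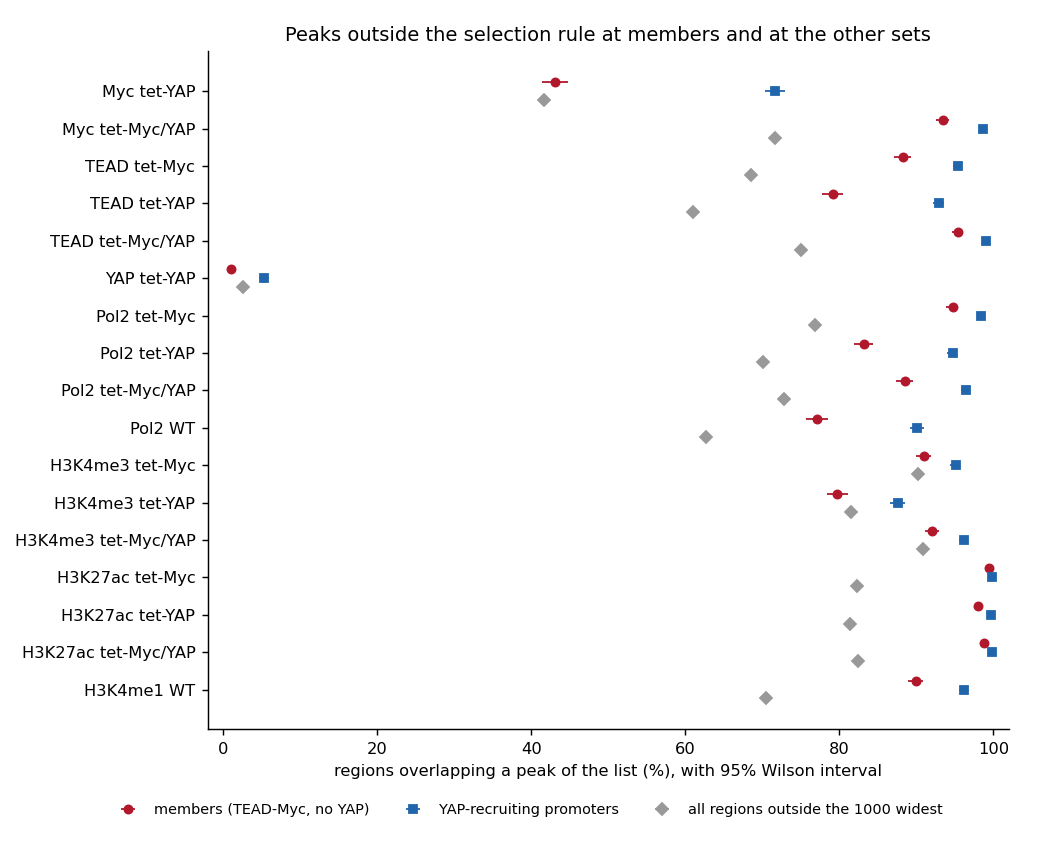
Share of regions overlapping a peak or region of each list that the rule did not use, in percent with 95% Wilson intervals, for the 3357 members, the 4458 YAP-recruiting promoters and all 17852 regions outside the widest 1000. The members lie left of the YAP-recruiting promoters in each list, farthest for Myc in tet-YAP liver (43.1% and 71.7%).

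Where a peak was present, it was lower at members than at YAP-recruiting promoters. This held for the median fold enrichment in all 10 factor and Pol2 lists outside the rule. Myc in tet-Myc/YAP liver had a median of 12.3 at members (quartiles 8.94 and 18.2) and 16.6 at YAP-recruiting promoters, and TEAD in tet-Myc/YAP liver 9.87 (7.19 and 14.4) and 12.7. Pol2 in tet-Myc liver had a median of 14.2 at members and 19.9 at YAP-recruiting promoters, and Pol2 in wild-type liver 11.5 and 14.5. The members' medians also lay under those of all regions with a peak in the same 10 lists, although the quartile ranges overlapped widely. For scale, the median Myc peak at a member ranked at the 60.5th percentile of the tet-Myc/YAP list, and the median at a YAP-recruiting promoter at the 75.7th. The 2 lists that chose both classes showed the same order, with medians of 9.50 and 12.1 for Myc in tet-Myc liver and 5.96 and 7.19 for TEAD in wild-type liver, given here as a description.

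**Figure D3:**
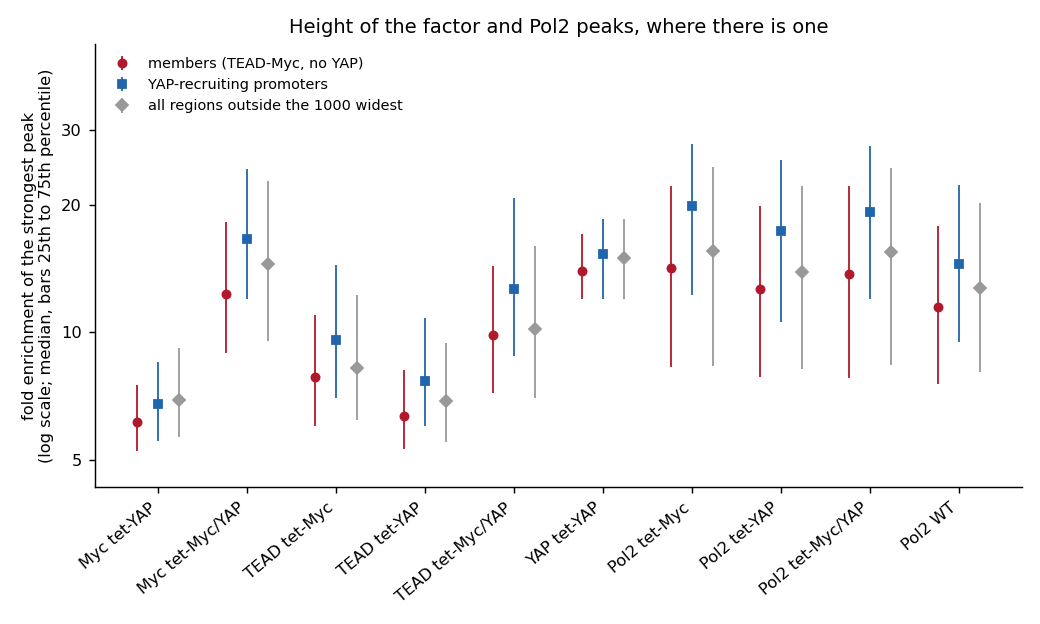
Fold enrichment of the strongest peak in a region (log scale) for the 10 factor and Pol2 lists outside the rule, as medians with bars from the 25th to the 75th percentile, among regions with a peak. The members' median is the lowest of the 3 sets in each list, for example 12.3 against 16.6 at YAP-recruiting promoters for Myc in tet-Myc/YAP liver.

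Some members carried very strong peaks all the same. Besides the promoter on chromosome 2 described above, chr14:115438790-115442746, chr11:51431633-51434580, chr11:100406189-100407806 and chr7:52240738-52244176 had the highest −log10 q for Myc in tet-Myc liver. Their Myc fold enrichments in tet-Myc/YAP liver were 107.55, 71.24, 43.37 and 28.57, and in tet-YAP liver 24.94, 23.41, 13.20 and 18.38, so each kept Myc in both genotypes. The first of them had no Pol2 peak in tet-YAP or wild-type liver, and fold enrichments of 7.71 in tet-Myc and 13.03 in tet-Myc/YAP liver. By the −log10 q of Myc in tet-Myc/YAP liver, chr1:71602725-71604858 and chr5:51982512-51983570 ranked at 3 and 5 among the members, with fold enrichments of 79.66 and 61.50.

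The strongest TEAD members were other promoters. Their Myc fold enrichments in tet-Myc liver were 13.29, 12.35, 7.13, 9.34 and 7.68 in the order below, beside a median of 9.5 over all members. The 5 with the highest −log10 q for TEAD in wild-type liver were chr7:36179772-36183848, chr12:25824698-25830659, chr8:3671662-3672957, chr13:23641656-23649695 and chr3:108393603-108396970. At the first, TEAD fold enrichment was 56.60, 33.82 and 72.87 in tet-Myc, tet-YAP and double transgenic liver, against 26.02 in wild-type liver, with the nearest YAP peak 156241 bp away. At the second it was 76.47, 20.61 and 54.16, against 28.23. At the third it was 19.15, 18.70 and 22.83, against 27.08. The lists differ in depth and were called one by one, so such values of single promoters are set side by side and no change is read from them. The fourth had a YAP peak in tet-YAP liver with a fold enrichment of 11.00. The value of 72.87 at the first was also the highest TEAD fold enrichment of any member in tet-Myc/YAP liver.

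Among active promoters with TEAD and Myc but no wild-type Myc, the share that lacked YAP went with the strength of the Myc peak. Both classes were pooled and divided by −log10 q into 4 groups of equal size. Members were 60.6% of both classes in the group with the weakest Myc peaks of tet-Myc liver, then 45.2% and 37.1%, and 28.5% in the strongest. They were 57.4%, 43.3%, 37.3% and 33.8% over 4 groups by width, narrow to wide, and 52.1%, 51.1%, 39.2% and 29.4% over 4 groups by the H3K4me3 score, low to high. The group with the strongest Myc still held 555 members. Since Myc in tet-Myc liver was part of the rule, these groups describe the promoters and test nothing.

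Within each of these groups, members had the lower share of Myc and TEAD in tet-YAP liver and of Pol2 in wild-type liver. Myc in tet-YAP liver was found at 17.9%, 36.5%, 61.4% and 84.9% of members from the weakest to the strongest Myc in tet-Myc liver, and at 35.2%, 59.4%, 79.6% and 94.7% of YAP-recruiting promoters. The share thus moved with Myc strength in both classes, and more than between them. The classes lay closest in the group with the strongest Myc. TEAD in tet-YAP liver moved little, from 75.3% to 82.5% over the members' groups and from 90.2% to 93.8% over those of the YAP-recruiting promoters. Pol2 in wild-type liver was found at 69.3% to 86.5% of members and 81.9% to 94.6% of YAP-recruiting promoters. Over the H3K4me3 score the gap in polymerase closed. In the group with the highest score 98.3% of members and 99.5% of YAP-recruiting promoters had Pol2 in wild-type liver, whereas in the lowest the shares were 49.9% and 64.6%.

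**Figure D4:**
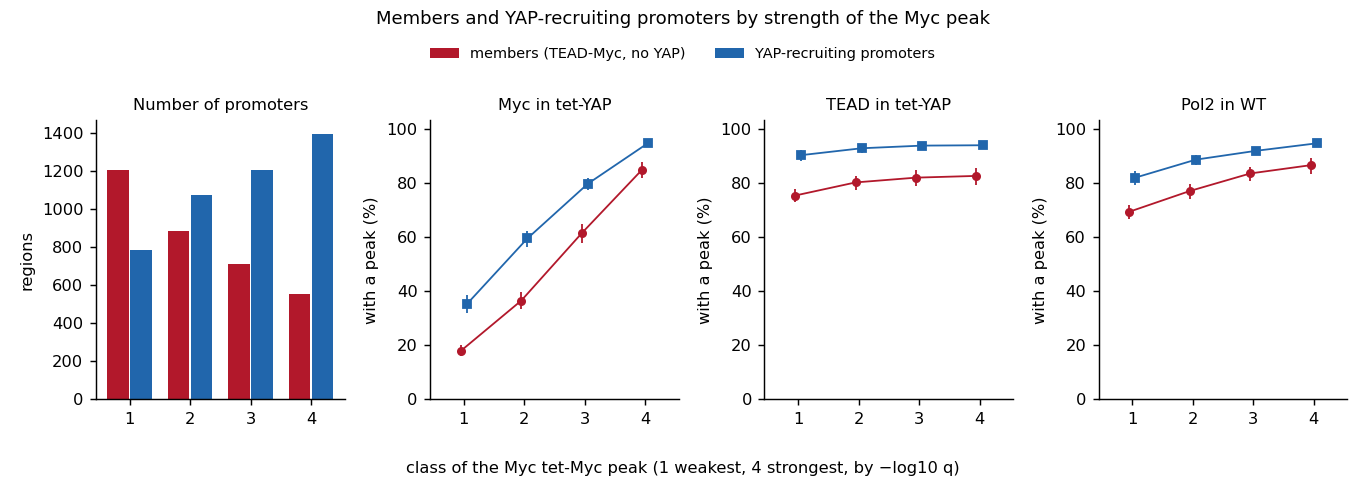
Members and YAP-recruiting promoters in 4 groups by the −log10 q of their Myc peak in tet-Myc liver. From left to right, number of regions, and share with Myc in tet-YAP, TEAD in tet-YAP and Pol2 in wild-type liver, in percent with 95% Wilson intervals. Members fall to 555 in the strongest group, against 1395 YAP-recruiting promoters, and their shares stay lower in each group.

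The 1447 members with Myc in tet-YAP liver were the stronger promoters of the class. Their median width was 3697 bp, against 3004 bp for the 1910 members without it, and their median Myc fold enrichment in tet-Myc liver was 12.6, against 7.96. Pol2 in wild-type liver was present at 88.6% of them, against 68.5%. TEAD in tet-Myc liver, on the other hand, was found at 88.4% and 88.1%, and YAP in tet-YAP liver at 0.829% and 0.995%. The 220 members without Myc in tet-Myc/YAP liver lay at the weak end, with a median width of 2125 bp and Pol2 in wild-type liver at 51.4%, against 3391 bp and 79.0% for the members that kept Myc.

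The members can be set beside the other active promoters without wild-type Myc. Myc in tet-YAP liver was found at 43.1% of members (41.4 to 44.8), against 35.2% (32.9 to 37.6) of 1588 promoters with Myc in tet-Myc liver but no TEAD in wild-type liver. With the YAP-recruiting promoters added to the members, the share was 59.4% of 7815. TEAD in tet-Myc/YAP liver was found at 95.4% of members, against 71.1% of the promoters with Myc but no TEAD. Among 912 with TEAD but no Myc, Myc in tet-YAP liver was found at 7.02% and Pol2 in wild-type liver at 49.6%, lower than in members, but YAP in tet-YAP liver at 5.26% (3.99 to 6.91), higher than the members' 0.923%. Neither of these sets was formed with regard to YAP, whereas the members were chosen for lacking it in tet-Myc/YAP liver.

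The distance between Myc and TEAD within a promoter was alike in members and YAP-recruiting promoters for the lists that chose both classes, and shorter in members for TEAD of the double transgenic liver. From the strongest Myc summit of tet-Myc liver to the nearest TEAD summit of wild-type liver in the same promoter the median was 164 bp at members and 165 bp at YAP-recruiting promoters, and 55.6% of both lay within 200 bp. To the nearest TEAD summit of tet-Myc/YAP liver, which the rule did not use, it was 166 bp at members and 191.5 bp at YAP-recruiting promoters, with 57.1% and 51.8% within 200 bp. To the nearest Pol2 summit of tet-Myc liver it was 136 bp and 169 bp. From the same Myc summit to the nearest Myc summit of tet-Myc/YAP liver it was 59 bp and 56 bp. TEAD summits of wild-type and tet-Myc/YAP liver lay a median of 101 bp apart in both classes. Members held fewer peaks, with 2 or more Myc peaks of tet-Myc liver in 28.3% against 37.9%, and 2 or more TEAD peaks of tet-Myc/YAP liver in 36.8% against 48.2%. Those summit distances were measured only where both peaks were present, and narrower promoters allow shorter distances.

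Chromosome X held few members and still fewer YAP-recruiting promoters. Members were 70 of its 492 regions (14.2%, 11.4 to 17.6), lower than the 16.5% to 21.8% of single autosomes, though its interval reached the lowest of these. Among active promoters with TEAD and Myc but no wild-type Myc, on the other hand, they were 70 of 88 (79.5%, 70.0 to 86.7). The remaining 18 recruited YAP. On the autosomes members were 3286 of 7726 (42.5%, 41.4 to 43.6), and single autosomes ranged between 38.7% and 47.7%. Matched to the classes of Myc strength, of width and of H3K4me3 score found on X, the autosomal share was 47.3%, 41.1% and 45.9%. Where YAP peaks of −log10 q of at least 10 alone excluded a promoter, the members were 92.0% on X and 69.9% on the autosomes. The gap in percentage points was smaller, with both shares nearer to their upper limit. The promoters that recruited YAP were then 7 of 88 on X and 2329 of 7726 on the autosomes, against 18 and 4440 under the main rule. The YAP list that sets this share is part of the rule, and the pattern was noticed in the data and then described without a test.

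Chromosome X had a lower share than the autosomes in each factor, Pol2, H3K27ac and H3K4me1 list, and a higher one in the 3 H3K4me3 lists of the transgenic livers. YAP of tet-Myc/YAP liver overlapped 6.30% of 492 regions on X and 39.6% of 17357 on the autosomes. TEAD of tet-Myc/YAP liver overlapped 54.5% and 75.5%, and Myc of tet-Myc liver 50.2% and 70.6%. For Myc of tet-YAP liver it was 12.4% and 42.5%, for TEAD of tet-YAP liver 26.4% and 61.9%, and for H3K4me1 24.0% and 71.8%. The 70 members on X had nearly the same height of Myc and TEAD as the 3286 on autosomes, with median fold enrichments of 12.0 and 12.3 for Myc and 9.78 and 9.87 for TEAD in tet-Myc/YAP liver, and median pileups of 39 and 44 for Myc and 49 and 53 for TEAD. Pol2 in wild-type liver was found at 87.1% of the members on X and 76.9% of those on autosomes. H3K4me1 was found at 37 of the 70 members on X (52.9%) and at 90.7% of the autosomal members, and Myc in tet-YAP liver at 20 (28.6%) and 43.4%. The sex of the animals was not given. Chromosome Y held 3 regions in the H3K4me3 list of each of the 4 genotypes, and sex was not tested from this. The part of the slightly lower pileup on X in these shares was not tested.

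**Figure D5:**
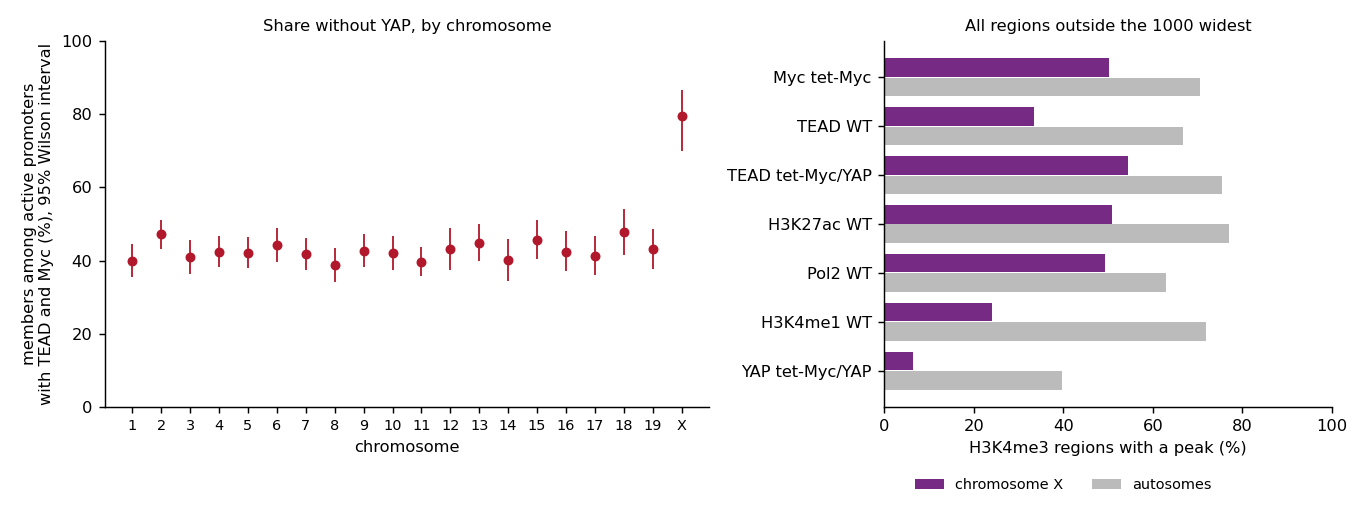
Left, members as a share of active promoters with TEAD and Myc but no wild-type Myc, by chromosome, in percent with 95% Wilson intervals. Chromosome X stands at 79.5% and the autosomes between 38.7% and 47.7%. Right, share of H3K4me3 regions outside the widest 1000 that overlap a peak of 7 lists, on chromosome X (492 regions) and on the autosomes (17357 regions), where YAP of tet-Myc/YAP liver stands at 6.30% and 39.6%.

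Members lay somewhat closer to their neighbours than H3K4me3 regions in general. The gap from a member to the next H3K4me3 region had a median of 15.3 kb, beside 17.2 kb for YAP-recruiting promoters and 18.9 kb for all regions. That neighbour was itself a member for 22.2% of members, beside 20.9% for YAP-recruiting promoters and 19.0% for all regions, and a YAP-recruiting promoter for 26.8%, 26.9% and 24.4%. At the limit of width, the widest members were chr13:38436126-38446758 with 10633 bp, chr1:193212470-193223067 with 10598 bp and chr11:121207148-121217739 with 10592 bp. The H3K4me3 ratio of tet-Myc/YAP over wild-type liver was 0.269, 0.948 and 0.377 at these, so the mark covered far less in the double transgenic liver at the first and the last of them.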

How the data were processed

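Peak lists of liver ChIP-seq in 4 genotypes were used, 23 lists from 24 samples, each list from 1 library. The remaining sample, titled as an input, was not analysed here. The submitters' processing notes name BWA 0.6.2, SAMtools and MACS2 2.0.9, and the mm9 build. The 14 deposited narrow lists hold, per the file headers, the summit's pileup signal, its ratio to the control (fold enrichment), and −log10 p and −log10 q values, called by the authors per library at a p-value cutoff of 1.00e-05. The 9 deposited broad lists of histone marks hold a score without a stated scale, used only to rank regions within the wild-type H3K4me3 list.

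Overlap of at least 1 bp was computed in Python 3.11.15 (pandas 2.3.3, numpy 2.4.6), without a pseudocount or count filter. A wild-type H3K4me3 region was the unit throughout. Where a region held several peaks of a list, that with the highest −log10 q gave its values. Shares carry Wilson 95% intervals and differences Newcombe intervals (scipy 1.17.1). YAP-recruiting promoters were reweighted to the members over 10 classes of width or 4 of Myc −log10 q. Covered length was counted within 2 kb of a region, with ratios past 1.5 counted. Fold enrichment was compared between sets of regions within a list only. For single named regions the values of several lists are given side by side. The overlap, class and reweighting code was tested on simulated data of 2000 regions with 500 planted partners and gave the known answer in 9 of 9 checks. Figures used matplotlib 3.10.9.

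Single regions were named by rule: the 5 members with the highest −log10 q for Myc in tet-Myc, for TEAD in wild-type and for Myc in tet-Myc/YAP liver, 5 with YAP in tet-YAP liver, the 5 nearest to YAP and the 5 just outside, the 3 widest, the 3 with the largest H3K4me3 ratio and 3 without Pol2. The group of each library came from the sample titles, which name the Myc and YAP transgenes or wild type but not R26-rtTA. The members, lists and comparisons were chosen with earlier results of these data known. Gene names, marker and gene lists and sequences had been planned but were not used, as no mm9 genome or annotation was used here.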

Additional observations from a re-analysis of the deposited data

How the results depend on the processing

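With 1 library per group nothing could be left out and no test between genotypes was possible, so a share or difference moved where it left its 95% interval under the deposited setting, a count where it changed by more than 1.5 times, and a median ratio where it left the quartiles. No paired analysis was possible because each group holds 1 library and no result comes from a test. Of 235 alternative values, 144 stayed within those limits and 91 moved. Only the differences from YAP-recruiting promoters, made for 10 lists, could change sign, and 0 of these did. The number of members was 5479 when only YAP peaks of −log10 q of at least 10 excluded a region, against 3357, and 3286 to 4474 under the 6 other rules, among them the removal of chromosomes X and Y. With outcome peaks of −log10 q of at least 10, members had Myc in tet-Myc/YAP liver at 86.5%, TEAD at 89.2%, Pol2 at 84.7% and YAP in tet-YAP liver at 0.0596%. Within 500 bp of the Myc summit the same shares were 92.0%, 89.0%, 84.3% and 0.447%, and with lists of equal length the first 3 were 51.7%, 77.7% and 84.2%. With members defined by the stricter YAP list they were 95.1%, 96.7%, 91.0% and 1.70%. Cutting the tet-YAP YAP list to equal length was not run, as it was the only outcome list for YAP. The difference from YAP-recruiting promoters for Myc in tet-YAP liver, −25.2 percentage points, became −21.6 with outcome peaks of −log10 q of at least 10. It was −27.7 without the wild-type Myc list, −28.6 without reweighting, −17.7 by Myc strength and −14.6 by Myc strength, width and score together. Reweighting by score, alone or jointly, removing chromosomes X and Y, requiring H3K4me1 over 50% of a region the backgrounds limited to regions without wild-type Pol2, with wild-type H3K27ac or without YAP, and the other definitions of the members on chromosome X, which gave 77.2% to 92.0% there and 37.2% to 69.9% on the autosomes, were chosen after seeing the data. The count of members whose H3K4me3 length fell to 1/1.5 or less was 523 in tet-Myc and 556 in tet-Myc/YAP liver with a ratio of 2, against 985 and 1063. A lower depth of the YAP library than of the TEAD libraries limits what absence of a YAP peak means, since sites under its cutoff are not in the list.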

Other observations

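The members can also be set beside the active promoters that lack TEAD in wild-type liver, Myc in tet-Myc liver or both. The length covered by H3K4me3 in tet-Myc/YAP liver over that in wild-type liver had a median ratio of 0.81 at members (quartiles 0.60 and 0.94) and 0.80 at the 1588 promoters with Myc but no TEAD. It was 0.71 at the 912 with TEAD but no Myc and 0.73 at the 1145 with neither. A ratio of at most 1/1.5 was reached at 31.7% of members and 29.8%, 44.1% and 41.9% of those 3 sets, against 30% of all regions. The last 2 sets were narrower than the members, with median widths of 2507 and 2484 bp against 3315 bp, and the part of width was not tested. H3K27ac of tet-Myc/YAP liver overlapped 98.8% of members and 83.7% of the promoters with neither factor. H3K4me1 of wild-type liver overlapped 89.9% and 52.8% of the same sets. These comparisons of marks between the sets were chosen after seeing the data.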
